A study of Mus musculus with 10 samples.

Results

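The 38 genes described here are markers and effectors of the dividing cell: 16 that act at the entry to and during S phase, when DNA is copied, and 22 that act in G2 and mitosis. They were taken by gene symbol from a list of cell cycle and DNA replication genes, all 38 were present among the 24368 genes of the table, and all 38 had a mean of at least 10 normalised reads, so all were among the 14062 genes tested. Expression was measured by RNA-seq of total RNA from the proximal jejunum, a stretch of small intestine that takes up dietary fat. There were 5 libraries from mice labelled WT and 5 from littermates labelled HuR cKO, in which the RNA-binding protein HuR (the product of Elavl1) was deleted in the intestinal epithelium. The sources used here give neither the Cre driver nor the age and sex of the mice, nor whether the WT littermates carried floxed alleles. The libraries carry the numbers WT 1, 3, 4, 5 and 6 and cKO 1, 2, 3, 4 and 5.

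In the small intestine, division is confined to the crypts, where stem cells and their transit-amplifying daughters copy their DNA and divide before they move onto the villus and stop cycling. Cyclin D with Cdk4 or Cdk6 opens the way into S phase by releasing E2F factors from the Rb family. E2F then drives the genes of origin licensing and nucleotide supply, whereas genes of mitosis are switched on later, through B-MYB and FOXM1 bound at promoter elements called CHR and through NF-Y bound at CCAAT boxes. HuR has been described as a binder of several cell cycle messenger RNAs, among them those of cyclins A2, B1, D1 and E1 and of the inhibitors p21 and p27.

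Recovered reads ran from 16063987 to 18927440 per library. Elavl1 itself stood at 630.5 to 709 normalised reads in WT and 556 to 725 in cKO (log2 fold change -0.08 ± 0.14 SE, limma adjusted p = 0.798), and because the deleted exons are not named, a whole-gene count cannot show the deletion; directions follow the labels. The enterocyte markers Fabp2, Apoa4, Sis and Lct were abundant in both groups, the lowest single value among them being 5917 for Lct. The ileal gene Fabp6 had a mean under 10. The ileal transporter gene Slc51b rose in cKO (1816 ± 357 to 3140 ± 599.5, SD, n = 5 each, limma adjusted p = 0.0421). The other tested ileal gene, Slc10a2, had the opposite sign and did not pass (log2 fold change -1.16, limma adjusted p = 0.464). The libraries cKO 3 and cKO 5 stand apart in the summed level of clock genes (2585 and 2120 normalised reads, against 5237 to 10834 in the others), so results are also given without them. Library cKO 1 had the highest share of mitochondrial reads (9.48%, against 2.69% to 6.09% in the other 9). As these are bulk samples, more dividing cells and more of these transcripts per dividing cell cannot be told apart.

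None of the 38 genes passed the test over all genes (limma adjusted p under 0.05), against 1.32% of all genes tested (0.441% higher and 0.882% lower in cKO). The smallest adjusted p was 0.0921, for Ccne2. The same count was 0 in edgeR (background 1.16%) and 1 in DESeq2, Ccna2, on the recovered reads (background 4.67%). All 22 genes of G2 and mitosis had a positive log2 fold change, from 0.32 (Kif20a) to 0.91 (Ccna2), with a median of 0.55; over all genes tested 51.0% were positive and the median was 0.01. A log2 fold change of 0.5 or more was reached by 14 of the 22, against 11.2% of all genes tested. Of the 16 S phase genes 12 were positive, 2 reached 0.5, and their median was 0.16, with a range from -0.87 (Ccne2) to 0.96 (Gins2). The medians of the G2/M and S phase genes thus differed by 0.39 on the log2 scale. At an unadjusted p under 0.05, 6 G2/M genes were higher and none was lower in cKO, and 2 S phase genes were higher and 2 lower, against 8.46% of all genes tested on the higher side and 10.1% on the lower side. No member had groups that did not overlap (4.87% of all genes tested). The members share libraries and move together, so these counts describe 10 mice and not 38 separate observations.

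**Figure D1:**
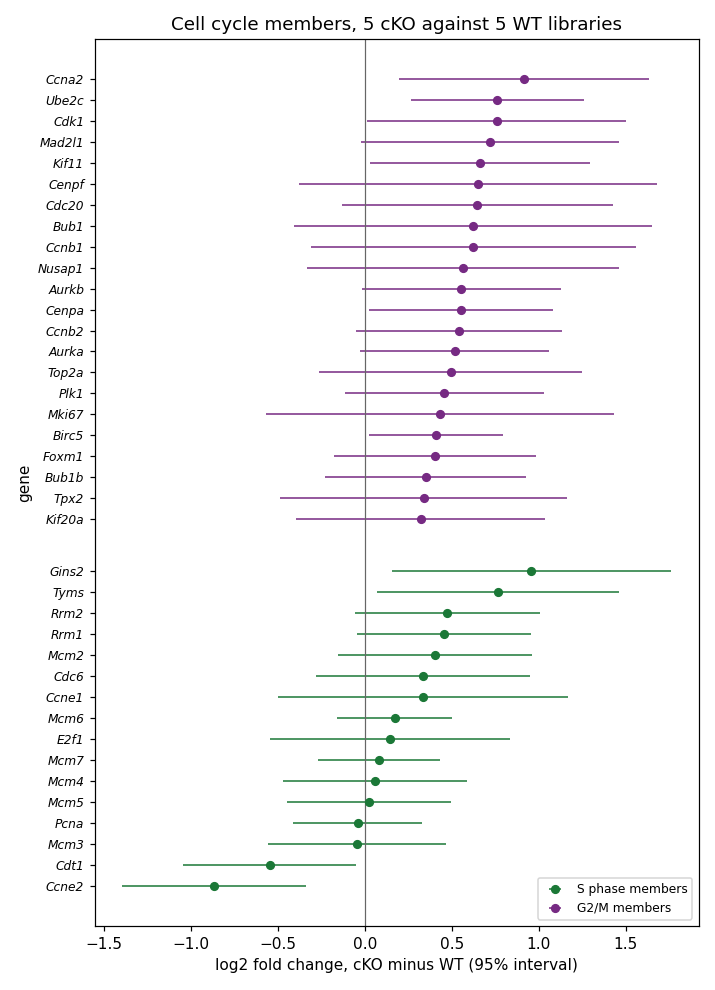
Log2 fold change (cKO minus WT) of each member with its 95% interval from limma, S phase genes below and G2/M genes above; each point rests on 5 WT and 5 cKO libraries. All 22 G2/M points lie above 0, while the S phase points run from -0.87 (Ccne2) to 0.96 (Gins2).

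Among the kinases and cyclins that drive mitosis, Ccna2 had the largest difference. It lies on chromosome 3 (mm10, 36564865 to 36572150) and encodes cyclin A2, which partners Cdk2 in S phase and Cdk1 in G2. Its levels were 96.1, 83.03, 60.4, 113 and 77.97 normalised reads in WT 1, 3, 4, 5 and 6 and 291, 66.4, 224, 116 and 204 in cKO 1 to 5. The 4 cKO libraries other than cKO 2 lay above the highest WT library. The difference was 1.88-fold (log2 fold change 0.91 ± 0.34 SE, limma adjusted p = 0.168). It passed in DESeq2 (adjusted p = 0.0371) and, with limma, without cKO 2 (log2 fold change 1.23, adjusted p = 0.0354; background 1.56%).

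Ccnb1 (chromosome 13, 100778650 to 100786570) encodes cyclin B1, the mitotic partner of Cdk1. Its values were 65.5, 63.8, 30.2, 109 and 58.5 in WT and 216, 31.8, 101, 88.5 and 115 in cKO. Libraries cKO 1 and cKO 5 lay above all WT libraries and cKO 2 near the lowest of them, which gave a log2 fold change of 0.62 (95% interval -0.31 to 1.56). Cdk1, the mitotic kinase itself, ranged from 79.0 to 121 in WT and from 73.7 to 355 in cKO (log2 fold change 0.76, limma adjusted p = 0.262). The second B-type cyclin, Ccnb2, ranged from 28.6 to 60.4 and from 44.5 to 111 (0.54, limma adjusted p = 0.312). The mitotic kinases Plk1, Aurka and Aurkb had log2 fold changes of 0.46, 0.52 and 0.55, and Foxm1, the transcription factor of the G2/M programme, one of 0.40; the groups overlapped for each of the 4.

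The degradation arm of mitosis held the smallest p among the G2/M genes. Ube2c (chromosome 2, 164769898 to 164778822), the ubiquitin-conjugating enzyme that works with the anaphase-promoting complex, stood at 100.2, 56.7, 82.8, 127 and 68.2 in WT and at 122, 107, 185, 156 and 156 in cKO. All 5 cKO values exceeded the WT median and 3 exceeded the highest WT value. The difference was 1.70-fold (log2 fold change 0.76 ± 0.23 SE, limma adjusted p = 0.111). Cdc20, the activator of that complex, had a similar log2 fold change of 0.65, but its highest value of all, 157, was in WT 5, and the 95% interval ran from -0.13 to 1.43.

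Birc5 (chromosome 11, 117849251 to 117855743) encodes survivin, which with the kinase Aurkb forms the chromosomal passenger complex. It stood at 134, 101, 110.1, 169 and 142 in WT and 193, 146, 166, 197 and 162 in cKO. The cKO values were close together, with 2 above the highest WT value and all 5 above the WT median (log2 fold change 0.41 ± 0.18 SE, limma adjusted p = 0.246). The spindle checkpoint genes Mad2l1, Bub1 and Bub1b had log2 fold changes of 0.72, 0.62 and 0.35, with limma adjusted p of 0.283, 0.508 and 0.509. The centromere histone gene Cenpa ranged from 46.8 to 79.8 in WT and from 59.1 to 139 in cKO (0.55, limma adjusted p = 0.251).

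Kif11 (chromosome 19, 37376403 to 37421859) encodes the motor that pushes the spindle poles apart. Its values were 108, 73.9, 79.9, 106 and 80.1 in WT and 254, 78.2, 201, 84.2 and 161 in cKO. The 3 libraries cKO 1, 3 and 5 stood well above WT, and the other 2 lay within the WT range (log2 fold change 0.66 ± 0.30 SE, limma adjusted p = 0.251). The other spindle and kinetochore genes were Nusap1 (0.56), Cenpf (0.65), Tpx2 (0.34) and Kif20a (0.32), with limma adjusted p from 0.489 to 0.673. Kif20a turned to -0.045 without cKO 3 and cKO 5.

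Mki67 (chromosome 7, 135689784 to 135716361), the source of the Ki-67 antigen used to stain dividing cells, had a wide spread within cKO. Its values were 321, 366, 180, 428 and 211 in WT and 998, 149, 491, 247 and 477 in cKO. The highest and the lowest library were both cKO, so the wide spread in cKO (a mean of 473 ± 329 against 301 ± 104, SD, 5 libraries each) left a log2 fold change of 0.43 with a 95% interval from -0.57 to 1.43 (limma adjusted p = 0.642). Top2a, the topoisomerase that untangles sister chromatids, had the same extremes, with cKO 1 highest at 871 and cKO 2 lowest at 194, and a log2 fold change of 0.49.

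**Figure D2:**
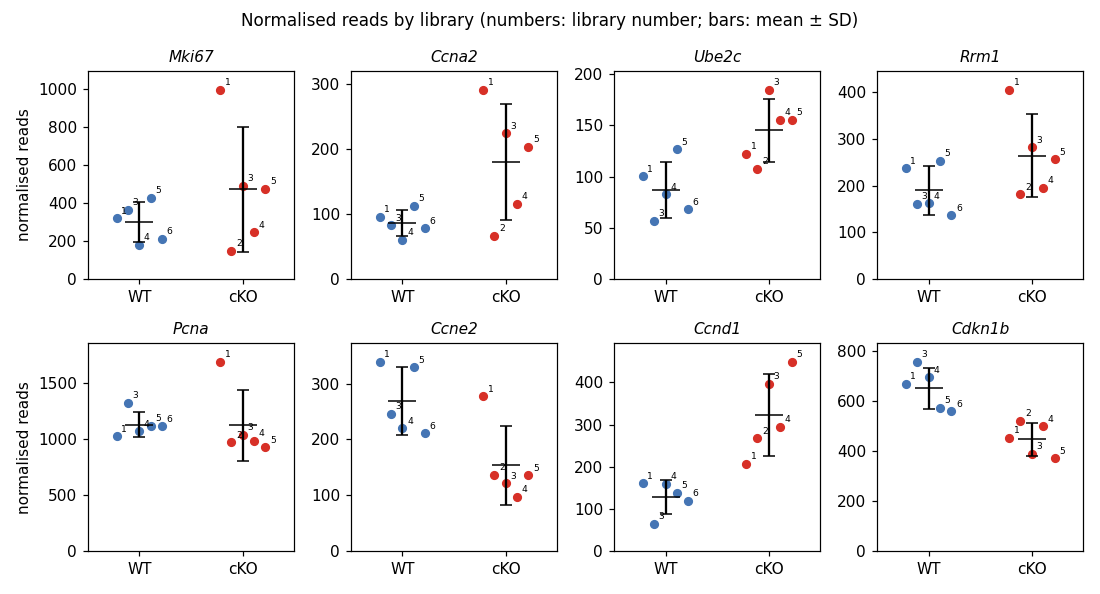
Normalised reads of 8 genes in each library (WT in blue, cKO in red; small numbers are library numbers, bars the mean ± SD of 5 libraries). Mki67, Ccna2, Rrm1 and Pcna peak in cKO 1, whereas Ccnd1 and Cdkn1b have no overlap between the groups.

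The S phase genes had no common sign. At S phase entry, the E-type cyclins had opposite signs. Ccne2 (chromosome 4, 11191351 to 11204779) stood at 339, 246, 220.2, 329 and 211 in WT and at 277, 136, 122, 98.1 and 136 in cKO. The 4 libraries cKO 2 to 5 lay below the lowest WT value and cKO 1 lay within the WT range (log2 fold change -0.87 ± 0.25 SE, limma adjusted p = 0.0921). Without cKO 1 the difference passed, at a log2 fold change of -1.10 (limma adjusted p = 0.0170; background 1.35%), and it also passed after centring on transcript GC content (-1.004, limma adjusted p = 0.0171; background 2.15%), an alternative chosen after the data were seen. Its paralogue Ccne1 was far lower, at 15.3, 16.2, 29.2, 23.9 and 11.9 in WT and 41.96, 24.6, 28.5, 8.53 and 27.3 in cKO. The groups overlapped widely, and cKO 4 held the lowest value of all (log2 fold change 0.33, 95% interval -0.50 to 1.17). E2f1 had a log2 fold change of 0.15 (limma adjusted p = 0.845), and -0.18 without cKO 3 and cKO 5.

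Origin licensing needs Cdc6 and Cdt1 to load the MCM2-7 helicase, which GINS then helps to activate. Gins2 was low, at 21.5, 16.2, 7.80, 33.9 and 20.6 in WT and 59.8, 30.9, 48.4, 20.3 and 33.7 in cKO. Libraries cKO 1 and cKO 3 lay above WT, and the difference was 1.94-fold (log2 fold change 0.96 ± 0.38 SE, limma adjusted p = 0.195). Cdt1 had the opposite sign, from 103 to 164 in WT and from 58.5 to 146 in cKO (log2 fold change -0.55 ± 0.23 SE, limma adjusted p = 0.224), with 1 of 5 cKO libraries above the WT median. Cdc6 had a log2 fold change of 0.34.

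The helicase subunits other than Mcm2 had log2 fold changes near 0. Mcm2 stood at 94.1, 64.8, 79.9, 182 and 87.7 in WT and 116, 83.7, 147, 142 and 158 in cKO. Of the cKO values 4 lay above the WT median and none above WT 5 (log2 fold change 0.40, 95% interval -0.15 to 0.96). Mcm3, Mcm4, Mcm5, Mcm6 and Mcm7 had log2 fold changes of -0.05, 0.06, 0.02, 0.17 and 0.08. Their 95% intervals lay between -0.56 and 0.58, which leaves room for differences of either sign, and the sign turned under some alternatives for Mcm3, Mcm4, Mcm5 and Mcm7 but not for Mcm6.

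Of the genes for nucleotide supply and the replication fork, Tyms, which makes thymidylate, ranged from 67.2 to 111 in WT and from 75.5 to 303 in cKO (log2 fold change 0.76 ± 0.33 SE, limma adjusted p = 0.227). Rrm1 and Rrm2, the subunits of ribonucleotide reductase, had log2 fold changes of 0.45 and 0.47 (limma adjusted p = 0.314 and adjusted p = 0.325). For Pcna, the sliding clamp of the fork, 4 of 5 cKO libraries lay below the WT median. It stood at 1025, 1322, 1067, 1117 and 1111 in WT and 1685, 971, 1039, 984 and 924 in cKO. Library cKO 1 was above all WT libraries, cKO 3 just inside their range and cKO 2, 4 and 5 below it, for a log2 fold change of -0.04 (95% interval -0.42 to 0.33). Its sign was positive, at 0.056, with equal library totals, which moved the median of all genes to 0.11.

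Per kilobase of exon, Pcna was also the most abundant member in WT, at 470.2 ± 47.8 normalised reads per kb (SD, n = 5). It was followed by Ccne2 at 77.0 ± 17.4 and Mcm6 at 67.4 ± 6.12, whose spreads overlapped. Mki67 stood at 29.9 ± 10.3 per kb, and Foxm1 (4.17 ± 1.29) and Cenpf (2.41 ± 1.44) were the lowest (SD, n = 5 each).

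Seen library by library, the members split the cKO group. Libraries cKO 3 and cKO 5 held all 22 G2/M genes above the gene's own median over the 10 libraries, cKO 1 held 18, cKO 4 held 14 and cKO 2 only 2. Among WT libraries the counts were 5, 4, 4, 19 and 0 for WT 1, 3, 4, 5 and 6. The median G2/M gene stood 0.95, -0.24, 0.85, 0.34 and 0.76 above the WT mean on the log2 scale in cKO 1 to 5, and 0.15, -0.22, -0.22, 0.42 and -0.22 in the WT libraries. Thus cKO 2 resembled the lower WT libraries, and WT 5 reached above cKO 4. The corresponding S phase values in cKO 1 to 5 were 0.37, -0.20, 0.31, -0.01 and 0.44. The G2/M median exceeded the S phase median by 0.57, 0.54, 0.35 and 0.32 in cKO 1, 3, 4 and 5. In cKO 2 the difference was -0.04, within the WT range of -0.16 to 0.17, so the groups overlapped.

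Without cKO 3 and cKO 5 the G2/M median was 0.35, with 21 of 22 genes positive, and the S phase median 0.12, with 9 of 16 positive. Leaving out 1 library at a time kept all 22 G2/M genes positive and gave medians from 0.43 (without cKO 1) to 0.77 (without cKO 2). The S phase medians ran from 0.12 to 0.24 in the same fits.

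**Figure D3:**
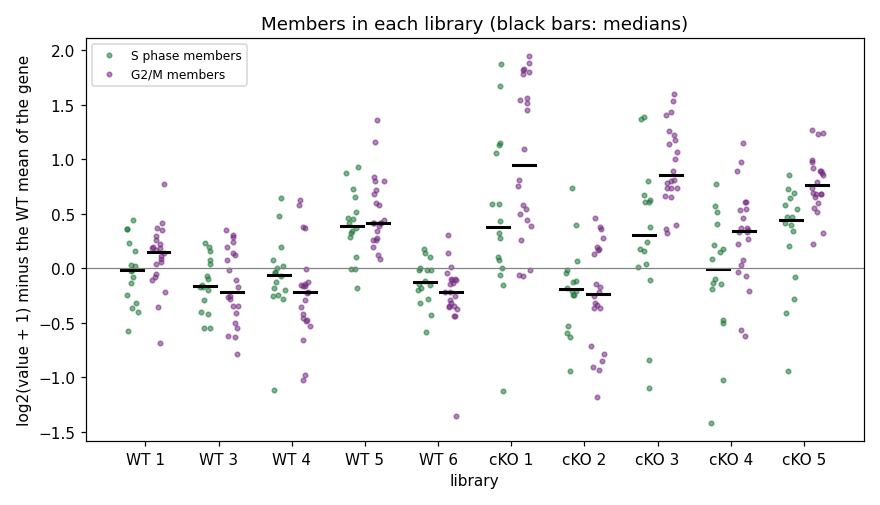
Each point is 1 member in 1 library, as log2(value + 1) minus the WT mean of that gene; green points are S phase genes, purple points G2/M genes, and black bars the medians. The G2/M bar stands above the S phase bar in cKO 1, 3, 4 and 5, and cKO 2 lies with the lower WT libraries.

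The highest of the 10 values was in a cKO library for 20 of 22 G2/M genes and 12 of 16 S phase genes (61.1% of all genes tested). It was in cKO 1 for 10 of 22 G2/M genes and 8 of 16 S phase genes (19.4% of all genes tested). With GC content taken from the longest annotated transcript, available for all 38, the 19 members of lower GC content (up to 47.8%) stood a median of 1.205 above their 10-library mean in cKO 1, and the 19 of higher GC content (from 48.4%) 0.08. In cKO 2 the corresponding medians were -0.62 and -0.13. Across the 38 members Pearson's r between GC content and the deviation was -0.68 in cKO 1, -0.23 in cKO 3 and 0.56 in cKO 2; the genes share the library and are not replicates. Mki67, Nusap1, Mad2l1, Cdk1 and Ccnb1 belong to the lower GC members that peaked in cKO 1, and Plk1, Cdc20 and Ccnb2 to the higher GC members that stood below their 10-library mean there. Other members departed from this: Gins2, Ccne1 and Cdc6, of higher GC content, also peaked in cKO 1. Of the lower GC members, Ccne2, the lowest of all at 36.3%, peaked in WT 1, Bub1 and Rrm2 in cKO 3 and Birc5 in cKO 4. The same gradient with GC content was present over all genes tested. In cKO 1 the genes in the lowest GC quintile had a median deviation of 0.41 and those in the highest -0.37 (r = -0.45 over 14050 genes), while r ran from -0.21 to 0.26 in the other 9 libraries.

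When each library was centred within 20 bins of GC content, the G2/M median was 0.53, with all 22 positive, and the S phase median 0.20, with 11 of 16 positive. The median log2 fold change was 0.62 for the 12 G2/M genes of lower GC content and 0.53 for the 10 of higher GC content. The median transcript GC content was 47.8% for the G2/M genes, 50.5% for the S phase genes and 49.6% for all genes tested.

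**Figure D4:**
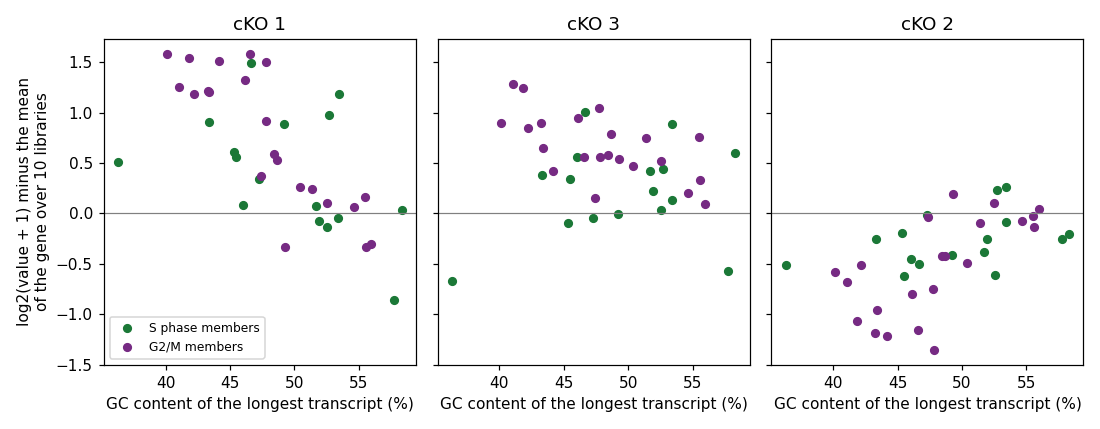
GC content of the longest transcript (%) against log2(value + 1) minus the gene's mean over the 10 libraries, for the 38 members in cKO 1, cKO 3 and cKO 2; green is S phase and purple G2/M. The points fall with GC content in cKO 1 (r = -0.68) and climb with it in cKO 2 (r = 0.56).

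The promoters of the S phase and G2/M members held different motifs. Windows from 250 bases before to 50 bases after the start, from RefSeq on GRCm38.p6, were at hand for 13 S phase and 17 G2/M genes and were searched on both strands. No window was at hand for Ccne2, Gins2 and Mcm4 among the S phase genes. The same held for Ccna2, Foxm1, Aurkb, Kif20a and Tpx2 among the G2/M genes. The CHR-type words TTTGAA and TTCGAA occurred in 13 of 17 G2/M promoters (76.5%), in 2 of 13 S phase promoters (15.4%) and in 21.7% of all 27025 genes with a promoter. Words of E2F type were searched in 4 forms, namely TTCCCGC, its variant TTCGCGC, the form TTGCCGC and its variant TTGGCGC. They occurred in 8 of 13 S phase promoters (61.5%), 3 of 17 G2/M promoters (17.6%) and 10.9% of all genes. The word CCAAT was found in 14 of 17, 8 of 13 and 41.1%, respectively. All 13 G2/M promoters with a CHR-type word also held CCAAT. Both words together were found in 2 of 13 S phase promoters (15.4%), 26 of 46 promoters of other mitosis genes (56.5%) and 9.65% of all genes. For the CHR-type and E2F-type words, the lists of other mitosis and other replication genes gave similar shares. A CHR-type word was found in 34 of 46 promoters of the former (73.9%) and in 7 of 36 of the latter (19.4%), and an E2F-type word in 11 of 46 (23.9%) and 23 of 36 (63.9%). These are matches of letters only; no binding was measured. E2F-type words on opposite strands can overlap each other. Median promoter GC content was 59.5% for S phase members, 58.7% for G2/M members and 52.7% for all.

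The last 150 bases before the start are shown for 3 G2/M genes that carry both CCAAT and a CHR-type word there and for 2 S phase genes with E2F-type words. Capitals mark the matches on either strand (CCAAT also as ATTGG, the CHR-type word also as TTCAAA), and sequences read 5′ to 3′ along the gene's own strand.
Ube2c (chr2:164769779-164769928, plus strand): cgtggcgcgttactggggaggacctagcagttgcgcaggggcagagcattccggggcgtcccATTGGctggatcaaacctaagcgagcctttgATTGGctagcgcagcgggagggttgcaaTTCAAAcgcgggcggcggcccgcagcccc
Cdc20 (chr4:118437344-118437493, minus strand): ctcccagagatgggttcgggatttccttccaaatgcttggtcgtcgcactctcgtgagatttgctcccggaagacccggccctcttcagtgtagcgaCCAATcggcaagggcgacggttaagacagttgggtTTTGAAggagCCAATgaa
Kif11 (chr19:37376232-37376381, plus strand): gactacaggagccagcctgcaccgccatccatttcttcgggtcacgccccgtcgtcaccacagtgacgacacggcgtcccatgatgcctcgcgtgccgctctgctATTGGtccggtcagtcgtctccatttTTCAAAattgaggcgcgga
Mcm6 (chr1:128359706-128359855, minus strand): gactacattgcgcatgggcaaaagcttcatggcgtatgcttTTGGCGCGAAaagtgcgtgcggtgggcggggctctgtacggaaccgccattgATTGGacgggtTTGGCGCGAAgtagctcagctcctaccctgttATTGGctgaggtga
Rrm1 (chr7:102441545-102441694, plus strand): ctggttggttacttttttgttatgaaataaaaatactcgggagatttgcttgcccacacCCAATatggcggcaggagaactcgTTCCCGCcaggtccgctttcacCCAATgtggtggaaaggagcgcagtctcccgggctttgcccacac

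The CHR-type word began 29 bases before the start in Ube2c, 18 in Cdc20 and 19 in Kif11, in each case downstream of a CCAAT match. Mcm6 carried 2 copies of a longer word in which E2F-type matches on both strands overlap, beginning 109 and 46 bases before the start.

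Further genes of the pathway were counted in lists. Of 53 other mitosis genes tested, none passed, 49 were positive and the median was 0.48. The 2 with the smallest p were Kif23, a motor of the midbody (WT 60.01 ± 21.8, cKO 111 ± 35.9, SD, n = 5 each; limma adjusted p = 0.122), and Cks1b, a Cdk subunit (42.5 ± 11.5 and 75.0 ± 21.01, SD, n = 5 each; limma adjusted p = 0.126). Of 43 other replication genes none passed, 35 were positive and the median was 0.22. Rpa3, a subunit of the single-strand binding protein, ranged from 101 to 156 in WT and from 132 to 437 in cKO (log2 fold change 1.02, limma adjusted p = 0.0947) and passed in DESeq2 (adjusted p = 0.00877) and after GC centring (limma adjusted p = 0.0497).

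Upstream of S phase, 1 of 13 G1 entry genes passed. Ccnd1, which encodes cyclin D1, stood at 162, 65.8, 160, 139 and 119 in WT and at 207, 267, 396, 295 and 448 in cKO. The groups did not overlap, and the rise was 2.52-fold (log2 fold change 1.33 ± 0.26 SE, limma adjusted p = 0.0254). Library cKO 2, where the G2/M genes were low, held 267, and cKO 1, where they were high, held the lowest cKO value. The call was lost without WT 3, 4 or 6 or without cKO 3 or 5 alone (limma adjusted p from 0.0504 to 0.0727), and at adjusted p = 0.149 without cKO 3 and cKO 5 together.

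Of 14 genes that restrain the cycle, none passed and 9 were negative, with a median of -0.13. Cdkn1b encodes p27, an inhibitor of cyclin E and cyclin A kinases. It stood at 669, 756, 695, 573 and 560 in WT and at 454, 521, 391, 500 and 371 in cKO. All 5 cKO values lay below all 5 WT values (log2 fold change -0.54 ± 0.16 SE, limma adjusted p = 0.0934), and the gene passed in DESeq2 (adjusted p = 0.0333) and after GC centring (adjusted p = 0.0497). Cdkn2d, which encodes the Cdk4 and Cdk6 inhibitor p19, had a log2 fold change of -0.56 (limma adjusted p = 0.191). Cdkn1a, which encodes p21, had nearly equal means of 10040 ± 916 and 10045 ± 3660 (WT and cKO, SD, n = 5 each), with a wider spread in cKO. Of 12 E2F repressors and pocket proteins none passed, and the median was 0.004; Rb1 and Lin54 had the smallest p, with log2 fold changes of -0.52 and -0.48 (limma adjusted p = 0.184 and adjusted p = 0.197).

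Markers of cell types that could carry these transcripts were summed in each library. The summed level of 10 crypt base stem cell genes ran from 1837 to 2443 in WT and was 4396, 2075, 4730, 1939 and 3013 in cKO 1 to 5, so that cKO 1, 3 and 5 lay above WT and cKO 2 and 4 within its range. Without Olfm4 the sum was 1704, 1503, 2122, 1384 and 1521 in cKO 1 to 5 and 1236 to 1462 in WT. Within WT the full sum was highest in WT 6, where none of the 22 G2/M genes lay above its own median, and 1838 in WT 5, where 19 did. None of the 9 tested passed and 8 were positive (median 0.35). Olfm4, a marker of crypt base cells, stood at 533 to 981 in WT and 555 to 2692 in cKO (log2 fold change 0.81, limma adjusted p = 0.375), and Lgr5 stood at 27.5 ± 10.2 and 36.5 ± 16.4 (SD, n = 5 each). Of 12 mature enterocyte genes 11 were negative and none passed (median -0.41). Their sum ran from 991292 to 1181210 in WT and was 1383420, 977999, 725406, 1285500 and 805343 in cKO 1 to 5. Thus cKO 1 and cKO 4 lay above all WT libraries and cKO 2, 3 and 5 below them. Among B cell genes the sum ran from 15296 to 28291 in WT and from 10162 to 41698 in cKO, highest in cKO 3 and cKO 1. Yet 7 of 8 tested B cell genes were negative and none passed (median log2 fold change -0.77), so the sum and the median differ in sign. The B cell sum rests largely on Jchain, the only positive gene, with means of 21403 in WT and 27606 in cKO. Of the list's genes, Cr2 and Fcer2a were among those at 0 in at least 1 library. No T cell gene of 10 passed, and 7 were positive and 3 negative (median 0.07). The T cell sum ran from 10273 to 11381 in WT and was 16223, 11736, 17807, 9721 and 15745 in cKO 1 to 5. It rests largely on Gzma, with means of 6717 in WT and 9630 in cKO. Of 6 fibroblast genes 2 rose, Col3a1 and Col1a1, and the sum was higher in every cKO library (6211 to 9835) than in any WT library (4847 to 6066). The endothelial sum was likewise higher (862 to 1466 against 403 to 619). That sum rests largely on Lyve1, the only gene of 6 past the test (limma adjusted p = 0.00272). Its mean rose from 274 ± 74.0 to 856 ± 220 (SD, 5 libraries each). Of the 6 endothelial genes 5 were positive and 1, Plvap, was negative (log2 fold change -0.46). Genes of erythroid precursors, which also divide, summed to 85.1 to 583 in WT and 205 to 985 in cKO, highest in cKO 4, and none of 4 tested passed. The part of these cell types in the cell cycle differences was not tested.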

How the data were processed

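Total RNA of the proximal jejunum of 10 mice was sequenced. According to the submitters' processing notes, the authors used CASAVA, HISAT2 2.0.5 (mm10), featureCounts 1.5.0-p3 and DESeq2 1.20.0; no source used here gives the strand setting or annotation release. The deposited table holds a normalised signal, which is counts divided by 1 size factor per library: 100% of values were whole within 0.001 of their library's step, and reads were recovered from that step. The authors' deposited gene length, in bases, gave levels per kb. 2 further columns of per-sample values match no label and were not used, nor were the authors' fold changes.

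Values were transformed as log2(value + 1), so changes of low genes are understated. Genes with a mean of 10 or more were fitted with limma 3.58.1 (R 4.3.3; trend, robust), with genotype alone, and adjusted by Benjamini-Hochberg over 14062 genes. Alternatives were edgeR 4.0.16 (163 genes called) and DESeq2 1.42.0 on recovered reads, other scalings, pseudocounts, filters, a replicate block and libraries left out. GC centring was chosen after the data were seen. The steps were tested on simulated counts. Members, lists and printed promoters were chosen with earlier results of these data known; values in every library are given for members with the smallest p (2 S phase, 4 G2/M), 6 further members and, in other lists, genes that passed or the 2 with the smallest p, some of which are not reported here. Other members are given by range. Cdkn1a, Slc51b, Slc10a2, Fabp6 and the marker genes named beyond Lgr5 and Olfm4 were chosen after their values were seen. Figures used matplotlib 3.10.9.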

Additional observations from a re-analysis of the deposited data

Results flagged for a closer look

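In 5 of 98 groups of 5 libraries examined (38 members and 11 other named genes, WT and cKO), 1 library stood apart from the other 4 by more than 0.71 of the range; chance gives about 1 in 20. Of these, 3 were WT 5 on the high side. Mcm2 stood at 182 there against 64.8 to 94.1 in the other WT libraries, Mcm5 at 183 against 82.8 to 110.1, and Cdc20 at 157 against 34.4 to 60.6. The other 2 were cKO 1 on the high side, with Pcna at 1685 against 924 to 1039 and Ccne2 at 277 against 98.1 to 136.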

How the results depend on the processing

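The G2/M median stayed positive in each alternative run, and exceeded the S phase median in each. Leaving out 1 library at a time gave 0.43 to 0.77 for the G2/M genes, 0.12 to 0.24 for the S phase genes and 0.31 to 0.55 for the difference. The number of members called was 0 to 1 with 1 library left out, 1 in DESeq2 (Ccna2), 1 after GC centring (Ccne2) and 1 with the replicate block (Ccna2), and 0 in the other alternatives. The number of all genes called was 186 and ran from 30 (without WT 4) to 611 (without cKO 4); it was 94, 43, 67 and 60 without WT 1, 3, 5 and 6, 65 and 111 without cKO 3 and cKO 5, 56 without both, 711 in DESeq2 and 302 after GC centring. The replicate block could be fitted on the 8 libraries with shared numbers, where it gave 130 genes against 88 without the block. Same-numbered libraries had correlations of their deviations of 0.12, 0.02, -0.11 and 0.10, and the other pairs of a WT and a cKO library ran from -0.23 to 0.26. The labels do not say what the numbers mark, and so few pairs cannot settle whether the numbers pair the libraries. The Ccnd1 call was lost on these 8 libraries both with the block (limma adjusted p = 0.0920) and without it (limma adjusted p = 0.0682). Signs turned for 7 members, Kif20a among them with a log2 fold change of 0.32. Mcm5 gave -0.0038 in edgeR and -0.012 in DESeq2; Mcm3 gave 0.051 and Pcna 0.056 with equal library totals; Mcm3 gave 0.048 in the 8 libraries with and without the block; Mcm4 gave -0.0044 after GC centring. Without cKO 3 and cKO 5, E2f1 gave -0.18, Kif20a -0.045, Mcm4 -0.16, Mcm5 -0.15, Mcm7 -0.063 and Pcna 0.060. With 1 library left out, Mcm3 ran from -0.22 to 0.099, Mcm4 from -0.075 to 0.22, Mcm5 from -0.077 to 0.21, Mcm7 from -0.0037 to 0.13 and Pcna from -0.20 to 0.017. The causes were not tested. Ccne1, Gins2 and E2f1 among the S phase genes and Foxm1, Kif20a and Aurkb among the G2/M genes had under 60 normalised reads in every library, where counting error adds to the spread between mice.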
